A study of Homo sapiens with 18 samples.

Results

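The comparison described here asks what 24 h of Palbociclib (PD0332991) before Nutlin did to the RNA of SJSA cells. It set the 3 samples labelled N+PD24 against the 3 samples labelled Nutlin, chosen by their labels, so 6 of the 18 libraries of the series were its members. SJSA is an osteosarcoma cell line that carries extra copies of MDM2 and CDK4. In a schedule of 30 h, cells of the N+PD24 group spent the first 24 h in 10 µM PD0332991, after which the inhibitor was removed and 20 µM Nutlin was present for the last 6 h. Cells of the Nutlin group received 20 µM Nutlin for the last 6 h and no PD0332991. For reference, DMSO cells received neither drug, PD24 cells received PD0332991 for 24 h with no Nutlin, and N+PD30 cells received PD0332991 for all 30 h and Nutlin for the last 6 h. All samples come from 1 cell line, and the study describes its replicates as biological, while the labels do not say whether they came from separate cultures. The p-values measure the spread between these samples.

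PD0332991 inhibits CDK4 and CDK6, the kinases that with D-type cyclins phosphorylate the retinoblastoma protein pRb in G1 phase. Unphosphorylated pRb and its relatives hold E2F-driven and mitotic genes silent, and phosphorylation releases them for S phase and division. Nutlin blocks the binding of MDM2 to p53, which stabilizes p53 and turns on its targets, among them CDKN1A, which encodes the CDK inhibitor p21, and MDM2 itself.

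Read totals were 30515707, 30025912 and 27137933 in Nutlin and 24398809, 36939725 and 27694736 in N+PD24, and expression is given as CPM (a gene's counts relative to the size of its library) after TMM scaling. The osteosarcoma markers were present in both groups, with COL1A1 at 2489 ± 484 CPM and SPARC at 1809 ± 122 CPM in Nutlin (SD, n = 3, as for all levels below), and MDM2 and CDK4 were among the abundant transcripts. RUNX2, the osteoblast master regulator, stood at 23.7 ± 0.918 CPM. Of 15 markers of blood, vessel, liver, nerve and heart cells, 8 were too low to test, among them PTPRC, CD3E and HBB, which reached at most 0.5 CPM in any of the 6 libraries. The summed level of all 15 was 34.2 to 39.8 CPM in Nutlin and 54.3 to 55.1 CPM in N+PD24, and CD68, a macrophage and lysosome protein, was the most abundant at up to 39.0 CPM. The part of this sum in the results was not tested. Bulk RNA cannot tell fewer cells with a transcript from less of it per cell.

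Pretreated cells had 1222 of 15960 genes tested lower, 7.66%, and 728 higher, 4.56%, by limma with Benjamini-Hochberg adjustment (adjusted p under 0.05 and a change over 1 on the log2 scale in either direction). Fold changes are N+PD24 minus Nutlin on the log2(value + 1) scale, where the value is a gene's reads scaled to the mean library size and not its CPM. The adjusted p alone was passed by 2742 lower genes (17.2%) and 2643 higher genes (16.6%), and with replicate number as a block, since same-numbered samples deviated together, by 4165 (26.1%) and 4157 (26.0%). The share of lower genes among those past both thresholds was 62.7% but 52.98% after quantile normalization, with 1049 lower and 931 higher. Every N+PD24 library lay below every Nutlin library for 24.3% of all genes tested and above for 23.4%.

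The falls reached much further than the rises. Among the genes that fell, 95 did so by more than 4 on the log2 scale, against 2 that rose by as much, and 89 fell by 3 to 4 against 10 that rose. The largest falls were dominated by cell cycle genes, since 69 of those 95, or 72.6%, belonged to 5 lists of cell cycle, replication and repair genes. In the class from 1 to 2, which held 846 falls and 627 rises, only 26 of the falls were on these lists (3.07%). Together the 5 lists held 215 genes tested, of which 183 were lower and 1 was higher, so that 1039 of the lower genes lay outside them.

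Genes of G2 phase and mitosis fell almost without exception. Of 89 tested, 86 were lower (96.6%, against 7.66% of all genes), and the median log2 fold change was -4.58, against 0.01 over all genes. The 3 others, named after their values were seen, were CENPL (-0.87), BUB3 (-0.81) and CDC20B (0.13), of which the first and the second still passed the adjusted p. The medians within replicate pairs 1, 2 and 3 were -4.79, -4.23 and -4.79.

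TOP2A, the topoisomerase that untangles sister chromatids, lies at chr17:38544777-38574148, minus strand in GRCh37 (hg19), the build of the files, from which all gene positions below are taken. It had 1235, 839 and 833 CPM in Nutlin and 7.68, 9.81 and 5.75 CPM in N+PD24. The lowest Nutlin library was thus far above the highest N+PD24 library, and the fall was 125-fold (log2 fold change -6.97, SE 0.21, adjusted p = 5.55e-08). CDK1, the kinase that drives entry into mitosis (chr10:62538089-62554610, plus strand), had 244, 186 and 183 CPM in Nutlin and 2.74, 2.99 and 1.54 CPM in N+PD24. This was a 85.8-fold fall, again with no overlap (log2 fold change -6.42, SE 0.24, adjusted p = 1.34e-07). MKI67, the Ki-67 proliferation antigen (chr10:129894923-129924687, minus strand), went from 262 to 3.12 CPM (log2 fold change -6.38, SE 0.20, adjusted p = 5.62e-08).

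The remaining places among the 10 largest falls were taken by genes of the spindle, the kinetochore and chromatin assembly. NUF2 and NDC80, partners in the complex that ties kinetochores to microtubules, fell by 6.76 and 6.40 on the log2 scale, the first from 52.5 to 0.469 CPM. AURKB, the kinase of the chromosomal passenger complex, fell from 51.5 to 0.561 CPM. The motor proteins KIF20A (159 to 2.004 CPM) and KIFC1 (70.8 to 0.898 CPM), the spindle protein NUSAP1 (177 to 2.29 CPM) and the histone chaperone ASF1B (56.6 to 0.657 CPM) completed them. In all 10, each N+PD24 library was below each Nutlin library.

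The cyclins of this phase behaved likewise. CCNB1, the partner of CDK1, went from 129 to 6.28 CPM (-4.37), and CCNA2 from 89.3 to 2.93 CPM (-4.92). PLK1, a mitotic kinase, fell by 4.87 on the log2 scale. FOXM1, a transcription factor of G2 genes, was reduced less, with 214, 215 and 219.9 CPM in Nutlin and 46.8, 52.4 and 47.0 CPM in N+PD24 (-2.15, SE 0.10, adjusted p = 3.6e-07).

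Because these genes moved together, their promoters were read from the RefSeq promoter table, of which the 250 bases before the start were used. The motifs searched on both strands were the cell cycle homology region or CHR (TTTGAA or TTCGAA), the CCAAT box (CCAAT) and E2F sites (TTTCCCGC, TTTGGCGC, TTTGCCGC or TTTCGCGC), none of which contains another. Of 74 matched G2/M promoters, 48.6% held a CHR and 70.3% a CCAAT box, against 14.6% and 33.0% of all 27305 promoters in the table. CCAAT boxes were also frequent in lists with no common fall, at 96.0% of 25 histone promoters and 86.2% of 29 promoters of the unfolded protein response. A CHR stood in 32.0% of the histone promoters and in 6.9% of those of the unfolded protein response. Of 40 matched promoters of replication genes, 27.5% held an E2F site, against 2.79% of all promoters. The histone promoters came close at 24.0%, while those of the unfolded protein response had 6.9%. A match describes letters only and shows no binding. Promoters are printed below for the largest fall and for the largest rise among genes of at least 5 CPM. A replication gene with an E2F site, chosen after its values were seen, is printed between them. Sequences are given 5′ to 3′ on the gene's strand, with these motifs in capitals, from GRCh38.p14.

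TOP2A, chr17:40417897-40418146, minus strand: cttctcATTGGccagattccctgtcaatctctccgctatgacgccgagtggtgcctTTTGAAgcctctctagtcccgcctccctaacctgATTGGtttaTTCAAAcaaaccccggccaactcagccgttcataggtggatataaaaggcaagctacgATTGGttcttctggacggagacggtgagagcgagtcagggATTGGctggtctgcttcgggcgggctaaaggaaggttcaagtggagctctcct

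GINS2, chr16:85688955-85689204, minus strand: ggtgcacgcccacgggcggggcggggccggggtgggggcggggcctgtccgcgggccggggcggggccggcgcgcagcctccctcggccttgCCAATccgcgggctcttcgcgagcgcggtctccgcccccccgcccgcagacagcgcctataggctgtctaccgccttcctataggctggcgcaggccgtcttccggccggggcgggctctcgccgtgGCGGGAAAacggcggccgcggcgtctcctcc

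FABP3, chr1:31373077-31373326, minus strand: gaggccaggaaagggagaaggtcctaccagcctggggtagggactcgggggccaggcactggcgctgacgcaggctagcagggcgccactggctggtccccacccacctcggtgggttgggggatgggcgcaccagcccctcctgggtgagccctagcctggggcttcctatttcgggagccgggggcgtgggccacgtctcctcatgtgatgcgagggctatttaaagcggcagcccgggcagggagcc

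The TOP2A sequence held 2 CHR and 4 CCAAT matches, each of the latter read on the opposite strand as ATTGG. GINS2, a subunit of the replicative helicase complex, had 1 CCAAT box and 1 E2F site and fell from 32.9 to 1.88 CPM (-4.18, SE 0.27, adjusted p = 4.15e-06). The sequence before FABP3 held none of the 3.

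**Figure D1:**
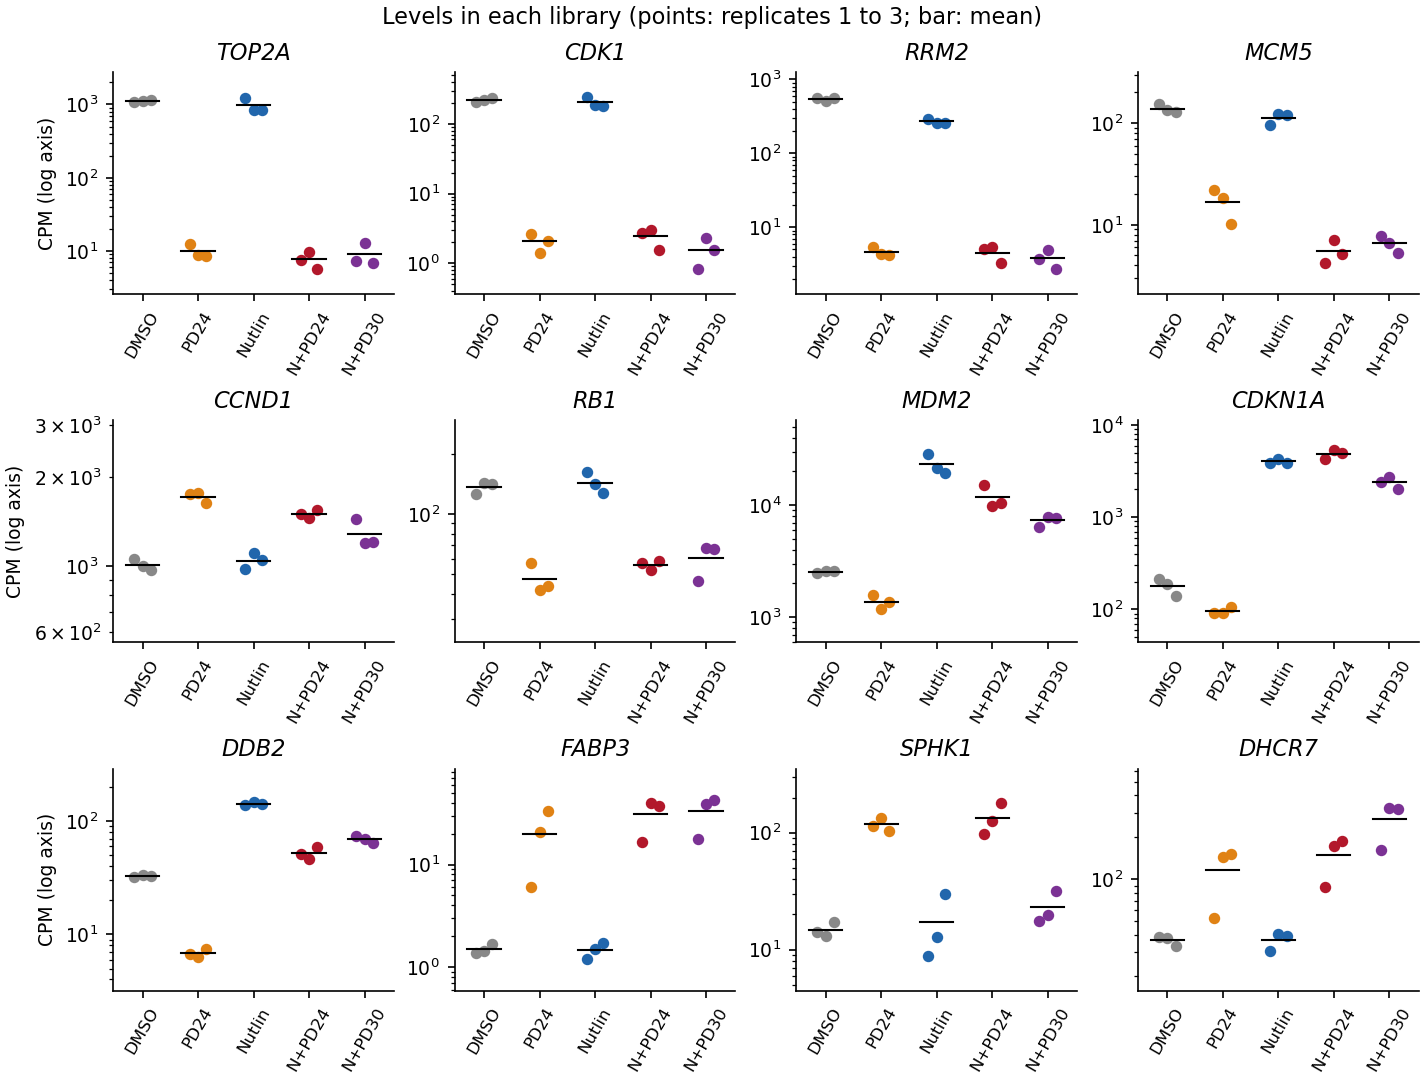
CPM on a log axis of 12 genes in each of 15 libraries of 5 groups, with points for replicates 1 to 3 and a bar for the mean. TOP2A, CDK1, RRM2 and MCM5 are lower in the 3 groups given PD0332991 than in the other 2, MDM2 and CDKN1A are higher in the 3 groups given Nutlin, and FABP3, SPHK1 and DHCR7 are higher in N+PD24 than in Nutlin.

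Replication genes fell as a group. Of 46 genes for licensing of origins and the replication fork, 45 were lower (97.8%, against 7.66% of all genes), and the median was -2.68. TIPIN, the exception, stood at 8.12 and 7.06 CPM (adjusted p = 0.334). MCM5, a subunit of the replicative helicase, had 94.8, 122 and 121 CPM in Nutlin and 4.24, 7.11 and 5.15 CPM in N+PD24 (-4.37, SE 0.19, adjusted p = 3.2e-07). CDC45, which activates that helicase, fell from 55.5 to 1.02 CPM, and CDC6, which helps to load it, from 53.3 to 4.66 CPM. PCNA, the sliding clamp of DNA polymerases, fell less, from 299.9 to 147 CPM (-1.03, SE 0.10, adjusted p = 6.07e-05).

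In nucleotide synthesis, enzymes that supply deoxynucleotides were among the genes that fell. Of 25 genes, 9 were lower past both thresholds (36.0%, against 7.66% of all genes), and the median was -0.76. RRM2, the regulated subunit of ribonucleotide reductase (chr2:10260825-10351851, plus strand), had 296, 258 and 261 CPM in Nutlin and 4.99, 5.37 and 3.23 CPM in N+PD24, a 60.8-fold fall (-5.93, SE 0.18, adjusted p = 5.78e-08). Its partner RRM1 fell from 289.9 to 20.96 CPM, and thymidylate synthase (TYMS) from 115 to 11.9 CPM. TK1, the thymidine kinase of S phase, fell by 2.94 on the log2 scale. CTPS, the enzyme that makes CTP, passed the adjusted p in the other direction, from 171 to 270.2 CPM (0.64).

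Repair by homologous recombination showed 30 of 34 genes lower (88.2%, against 7.66% of all genes), with a median of -2.60. The nuclease EXO1 fell from 10.1 to 1.501 CPM. The polymerase POLQ had the largest fall of the list, with 34.0, 25.9 and 33.1 CPM in Nutlin and 1.06, 0.626 and 0.564 CPM in N+PD24 (-5.35, SE 0.24, adjusted p = 4.21e-07).

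Genes that control the step from G1 to S phase did not all fall. Of 21 tested, 13 were lower and 1 was higher (61.9% and 4.76%, against 7.66% and 4.56% of all genes). E2F1, an activating E2F factor, fell from 41.7 to 1.97 CPM (-4.39, SE 0.19, adjusted p = 2.48e-07), and the cyclins CCNE1 and CCNE2 fell by 1.36 and 3.22 on the log2 scale. E2F8, a repressive E2F factor, was left with at most 3 reads in each N+PD24 library against 3.86, 2.56 and 4.11 CPM in Nutlin, so it was at least 31.8-fold lower by a floor of 3 reads per library. RB1, which encodes pRb, fell from 144 to 56.0 CPM, with 162, 142 and 128 CPM in Nutlin and 56.8, 52.7 and 58.3 CPM in N+PD24 (-1.36, SE 0.11, adjusted p = 2.83e-05).

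Of the D-type cyclins and their kinases, the latter the targets of the drug, CCND1, CCND2, CDK4 and CDK6 were not lower past the adjusted p. CCND1 had 978, 1107 and 1052 CPM in Nutlin and 1501, 1463 and 1556 CPM in N+PD24, without overlap, and passed the adjusted p but not the fold threshold (0.53, SE 0.10, adjusted p = 0.00287). CCND2 was the list's 1 higher gene, from 21.3 to 45.2 CPM (1.09, SE 0.15, adjusted p = 0.000645). CDK6 stood at 232 and 296 CPM (0.35, adjusted p = 0.0377), and missed the threshold under 5 other scalings (adjusted p 0.0530 to 0.106) and on leaving out any of 4 libraries, N+PD24 replicate 1 or 3 or Nutlin replicate 2 or 3 (0.0823 to 0.119). CDK4 was abundant, at 1997, 2489.5 and 2679.9 CPM in Nutlin and 1831, 2127 and 2358 CPM in N+PD24. It was lower in each of the 3 replicate pairs, but the groups overlapped (adjusted p = 0.366).

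Histone genes gave no common direction. Of 27 tested of 54 listed, 6 were lower and 4 higher (22.2% and 14.8%, against 7.66% and 4.56% of all genes). Both shares were thus above those of all genes, and the median was -0.09, or 0.02 after quantile normalization. The lower members were scarce, HIST1H3G for example going from 0.798 to 0.120 CPM (adjusted p = 0.0121, and 0.0547 without Nutlin replicate 2), and the 10 called members had at most 19.5 CPM in either group. HIST2H2BE, the most abundant of them, rose from 6.61 to 19.5 CPM (1.52, SE 0.21, adjusted p = 0.000667). Histone genes are near-identical copies of each other, so reads shared between them make single members uncertain.

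**Figure D2:**
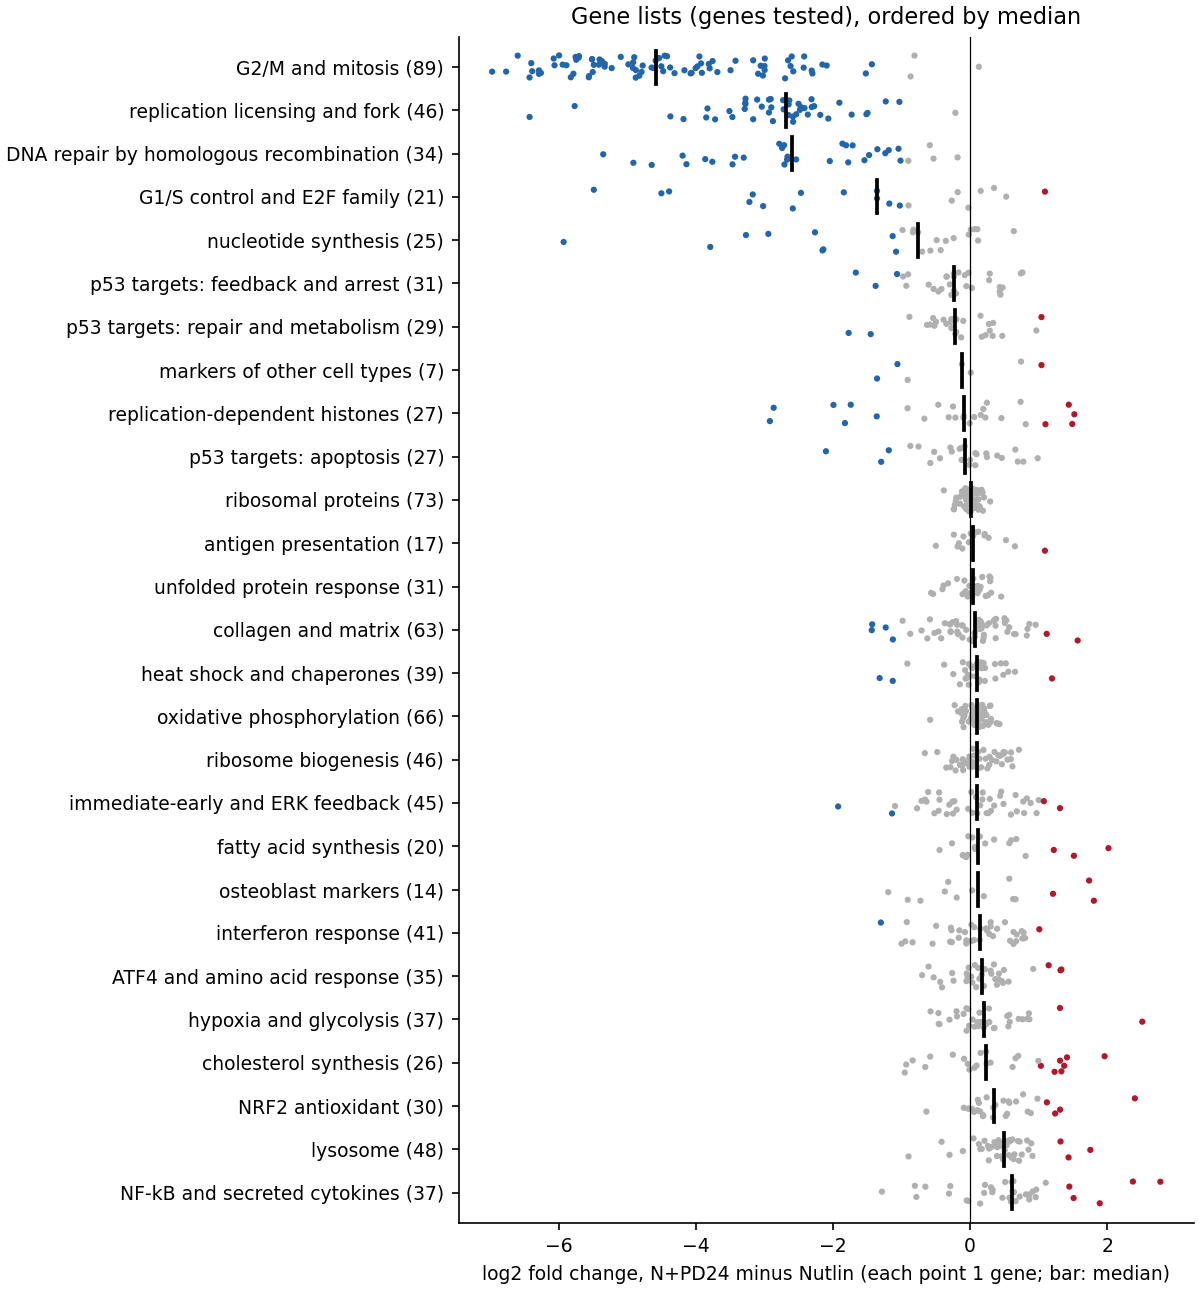
Log2 fold change (N+PD24 minus Nutlin) of the tested members of 27 gene lists, ordered by their median (bar), with lower genes in blue and higher genes in red. The 5 lists with the lowest medians are those of the cell cycle, replication and repair, and the lists of lysosomal, antioxidant and secreted genes have the highest.

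p53 targets changed in both directions, most of them by less than the fold threshold. Of 87 tested in 3 lists, 8 were lower and 1 was higher past both thresholds (9.20% and 1.15%, against 7.66% and 4.56% of all genes). Past the adjusted p alone, 21 were lower and 14 higher (24.1% and 16.1%, against 17.2% and 16.6% of all genes). With replicate number as a block, 37 were lower and 23 higher past the adjusted p, which is 42.5% and 26.4% against 26.1% and 26.0% of all genes in the same fit. Their median was -0.20, and the list medians were -0.24 for feedback and arrest, -0.08 for apoptosis and -0.21 for repair and metabolism. The median of the apoptosis list was 0.00 without N+PD24 replicate 2.

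MDM2, the ubiquitin ligase that removes p53 (chr12:69201957-69239324, plus strand), was among the most abundant transcripts. It had 28639, 21611 and 19280.0 CPM in Nutlin and 15147, 9909 and 10461 CPM in N+PD24, so that every pretreated library was below every Nutlin library. The fall was 1.97-fold and stopped just short of the fold threshold (log2 fold change -0.98, SE 0.20, adjusted p = 0.00511). After quantile normalization it was -0.53 with an adjusted p of 0.0732. MDM2 had 2544 ± 59.97 CPM in DMSO and 1374 ± 189.7 CPM in PD24, which is a level below all samples with Nutlin.

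CDKN1A (chr6:36644237-36655114, plus strand) was not lower. It had 3922, 4298 and 3859.6 CPM in Nutlin and 4325, 5388 and 4995 CPM in N+PD24, with each N+PD24 library above each Nutlin library, and a log2 fold change of 0.28 (SE 0.12) that missed the adjusted p at 0.0965 and passed it with the replicate block at 0.00943. CDKN1A also passed without N+PD24 replicate 1 (adjusted p 0.0401). TP53I3 and BBC3, which the study also followed, likewise missed it without the block and passed with it. TP53I3, an oxidoreductase, stood at 225 and 184 CPM (-0.28, adjusted p = 0.0811, 0.0126 with the block, and 0.0241 to 0.0469 after quantile normalization, with total counts or without Nutlin replicate 3). BBC3, the BH3-only protein PUMA, had 12.2, 16.6 and 23.4 CPM in Nutlin and 5.82, 8.73 and 15.3 CPM in N+PD24, lower in each of the 3 replicate pairs (-0.87, adjusted p = 0.0758, 2.19e-05 with the block, and 0.0124 to 0.0438 with DESeq2, with the values as deposited, without N+PD24 replicate 3 or without Nutlin replicate 1). RPLP0, the ribosomal reference transcript of the study, stood at 1739.7 and 1578 CPM (adjusted p = 0.436).

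The targets past both thresholds were led by PIDD, a death domain adaptor of caspase activation, which had 19.6, 35.7 and 34.4 CPM in Nutlin and 2.78, 8.42 and 12.8 CPM in N+PD24 (-2.10, SE 0.48, adjusted p = 0.00879). DDB2, which recognizes UV damage in DNA (chr11:47236016-47260768, plus strand), had 139, 147 and 142 CPM in Nutlin and 51.4, 46.5 and 59.8 CPM in N+PD24, again without overlap (-1.45, SE 0.11, adjusted p = 1.86e-05). DDIT4, an inhibitor of mTORC1, fell from 18.5 to 5.68 CPM, and CYP4F3, a fatty acid hydroxylase, from 3.19 to 0.981 CPM. The other members, named to complete the count after their values were seen, were SIVA1 (-1.29, lost without Nutlin replicate 2 at an adjusted p of 0.0899 and without Nutlin replicate 3 at 0.0667), TNFAIP8 (-1.18), C13orf15 (-1.38) and PLCD4 (-1.06). ORAI3, a calcium channel subunit, was the 1 higher gene, from 9.74 to 20.4 CPM (1.04, SE 0.18, adjusted p = 0.00219).

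Below the fold threshold, PPM1D, the phosphatase that acts back on p53, fell from 70.0 to 36.7 CPM (-0.93), and BTG2, an anti-proliferative factor, from 79.7 to 52.8 CPM (-0.60, adjusted p 0.0531 without N+PD24 replicate 2). The apoptosome scaffold APAF1 fell by 0.75 on the log2 scale. ZMAT3, an RNA-binding p53 target, passed in the other direction, from 269.5 to 459 CPM (0.77), and so did SAT1, a polyamine acetyltransferase, from 95.9 to 181 CPM (0.97). FAS, a death receptor, was at 138 and 181 CPM (0.40, adjusted p = 0.0312), but missed the threshold under 3 other scalings (adjusted p 0.0515 to 0.0770) and on leaving out N+PD24 replicate 1 or 3 or Nutlin replicate 2 or 3 (0.0700 to 0.113). BAX, the pore-forming apoptosis effector, stood at 211 ± 13.2 and 194 ± 8.09 CPM (adjusted p = 0.365), and the death receptor gene TNFRSF10B at 1127 ± 16.4 and 1335 ± 144 CPM (adjusted p = 0.113, 0.022 with the block).

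**Figure D3:**
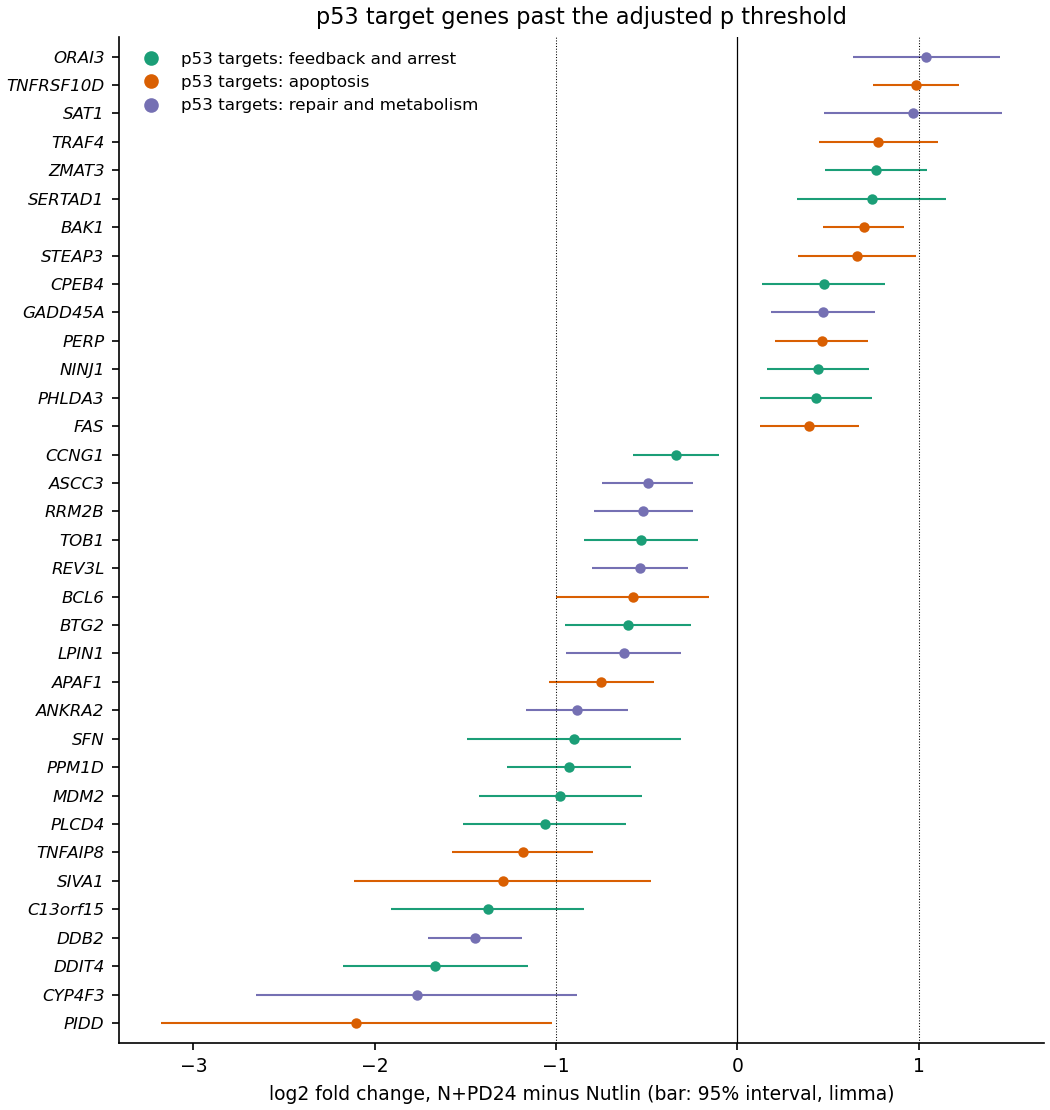
Log2 fold change (N+PD24 minus Nutlin) with its 95% interval from limma for the 35 p53 targets past the adjusted p threshold, coloured by list, with dotted lines at the fold threshold. Lower genes number 21, from PIDD to CCNG1, and higher genes 14, from FAS to ORAI3.

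The 10 largest rises among genes of at least 5 CPM came from transcripts of varied function. Of those with levels given below, only SPHK1 had a Nutlin library above 15.1 CPM, the median of all genes tested in Nutlin. FABP3, a cytosolic fatty acid carrier (chr1:31838100-31849697, minus strand), had 1.20, 1.49 and 1.73 CPM in Nutlin and 16.5, 39.5 and 36.9 CPM in N+PD24, a 19.4-fold rise without overlap (4.28, SE 0.31, adjusted p = 1.1e-05). SPHK1, which makes sphingosine-1-phosphate (chr17:74372665-74383941, plus strand), had 8.83, 12.9 and 30.0 CPM in Nutlin and 98.2, 126 and 179 CPM in N+PD24 (3.11, SE 0.39, adjusted p = 0.000357). It was the most abundant of the 10. ACTC1, the cardiac alpha-actin, rose from 1.94 to 19.4 CPM, and HKDC1, a hexokinase-like protein, from 3.41 to 22.8 CPM. HSD17B6, a steroid dehydrogenase, rose from 4.36 to 28.5 CPM, and the cytokine GM-CSF (CSF2) from 1.07 to 6.55 CPM. CCDC81, LOC284344, KRTAP1-5 and LOC730755 rose by 2.77 to 3.18 on the log2 scale, and KRTAP1-5 belongs to a family of similar genes whose reads may be shared.

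Lipid genes moved in part. In cholesterol synthesis 7 of 26 were higher past both thresholds (26.9% against 4.56% of all genes), with a median of 0.24, and the medians within pairs 1, 2 and 3 were -0.01, 0.32 and 0.85, so the pairs differed. DHCR7, the enzyme of the last step, had 30.3, 40.1 and 39.0 CPM in Nutlin and 87.7, 172 and 187 CPM in N+PD24 (1.96, SE 0.26, adjusted p = 0.000472).

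Of 20 genes of fatty acid synthesis, 3 were higher past both thresholds (15% against 4.56% of all genes), desaturases among them. FADS2 had 63.2, 69.2 and 63.7 CPM in Nutlin and 159.8, 339 and 344 CPM in N+PD24 (2.02, SE 0.26, adjusted p = 0.000378), and its annotated span overlaps FADS1 and FEN1. SCD, the desaturase that makes oleate, rose from 307 to 732 CPM (1.22, SE 0.18, adjusted p = 0.000952). ACSS2, which charges acetate, rose by 1.52. ACACA, the carboxylase of the first step, fell by less than the fold threshold, from 128 to 94.98 CPM (-0.44, adjusted p = 0.0256, and 0.0594 to 0.0965 on leaving out replicate 1 or 2 of either group). FASN, the fatty acid synthase, stood at 211 ± 68.7 and 265 ± 182 CPM with overlapping groups (adjusted p = 0.929).

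Lysosomal genes shared a small upward shift. Of 48, 44 had a positive fold change and 31 were higher past the adjusted p against 2 lower, which is 64.6% against 16.6% of all genes, while 3 passed both thresholds. The median was 0.49, and it was 0.51, 0.42 and 0.54 within the 3 pairs. NEU1, a sialidase, led with 57.5, 70.6 and 76.0 CPM in Nutlin and 195, 231 and 263 CPM in N+PD24 (1.76, SE 0.14, adjusted p = 2.35e-05). The protease CTSB rose from 2599.8 to 3612 CPM (0.47) while TFEB, the transcription factor of such genes, was at 0.653 and 0.593 CPM (adjusted p = 0.822). SQSTM1 and ASAH1, named after their values were seen, rose by 1.32 and 1.44.

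Antioxidant genes of the NRF2 list were higher in 4 of 30 cases past both thresholds (13.3% against 4.56% of all genes) and in 12 past the adjusted p (40.0% against 16.6%), or 18 with the block. The median was 0.35, and 0.22 without N+PD24 replicate 2, and the count of 4 reached 7 without N+PD24 replicate 3. HMOX1, heme oxygenase (chr22:35776354-35790207, plus strand), had 6.596, 10.1 and 9.58 CPM in Nutlin and 38.2, 48.1 and 52.0 CPM in N+PD24 (2.40, SE 0.19, adjusted p = 1.74e-05). SRXN1, sulfiredoxin, rose from 126 to 299 CPM and TXNRD1, thioredoxin reductase, from 906 to 1446 CPM (0.67). NQO1 and GCLM, further NRF2 targets, stood at 166 and 188 CPM and at 74.1 and 75.1 CPM, with adjusted p = 0.471 and 0.873.

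Secreted and NF-kB-linked genes had the highest list median, 0.61, with 5 of 37 higher past both thresholds (13.5% against 4.56% of all genes) and 14 past the adjusted p (37.8% against 16.6%), or 24 with the block (64.9% against 26.0%). LIF, a cytokine, rose from 37.6 to 109 CPM, ICAM1, an adhesion receptor, from 162 to 447 CPM, and MMP3, a matrix protease, from 0.774 to 2.97 CPM. CSF2, described above, was among them. That count of 5 reached 11 without N+PD24 replicate 2. IL6 and IL8, the classical NF-kB cytokines, overlapped between groups but were higher in each of the 3 pairs, with IL6 at 4.53, 2.73 and 2.92 CPM in Nutlin and 10.8, 3.07 and 4.40 CPM in N+PD24 (adjusted p = 0.244 and 0.161, and 0.00817 and 0.00184 with the block). NFKBIA, the inhibitor that NF-kB induces, had an adjusted p of 0.105, and 0.00785 with the block.

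Single genes of other lists passed both thresholds. MYC rose from 6.30, 11.98 and 10.3 CPM in Nutlin to 18.1, 24.6 and 26.9 CPM in N+PD24 (1.31, SE 0.24, adjusted p = 0.00314). TRIB3, a pseudokinase of the ATF4 response, rose from 10.5 to 28.03 CPM (1.32, adjusted p = 0.0157, and 0.0507 without Nutlin replicate 2) and STC2, a secreted glycoprotein hormone, from 52.3 to 131 CPM (1.33), while ATF4 itself was at 107 and 113 CPM (adjusted p = 0.661). ALDOC, the brain-type aldolase, rose from 2.90 to 17.3 CPM (2.51), and the osteopontin gene SPP1 from 12.1 to 41.7 CPM (1.81). In the matrix list TIMP3, an inhibitor of matrix proteases, rose from 123 to 392 CPM and VCAN, a proteoglycan, fell from 235 to 85.2 CPM. OAS3, an antiviral enzyme, fell from 85.2 to 34.6 CPM (-1.30). Among markers of other cell types, ALB fell from 2.34 to 1.12 CPM, RBFOX3 fell from 1.28 to 0.469 CPM and VWF rose from 5.70 to 11.8 CPM.

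Housekeeping lists showed only small changes. Of 73 ribosomal protein genes, 66 genes of oxidative phosphorylation, 46 of ribosome biogenesis and 31 of the unfolded protein response, none passed both thresholds by limma or by edgeR, and their medians lay between 0.01 and 0.10. The adjusted p alone was passed by 1, 2, 12 and 6 of them in this order, by either tool. An unadjusted p of 0.05 was passed by 1, 7, 22 and 10. With the block, the adjusted p was passed by 7, 17, 23 and 13. Over all genes tested, 16.6% were higher and 17.2% lower past the adjusted p, and 26.0% and 26.1% with the block. In ribosome biogenesis 10 genes were higher (21.7%) and 2 lower, and 17 and 6 with the block. In oxidative phosphorylation 1 was higher and 1 lower, and 15 and 2 with the block. With the block, 2 ribosomal protein genes were higher and 5 lower, and 7 and 6 of the unfolded protein response. The signs of the medians of ribosomal proteins, the unfolded protein response, heat shock, antigen presentation and the matrix list changed with the scaling, and these medians ranged from -0.11 to 0.10 over the scalings.

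To ask whether Nutlin changed the effect of the pretreatment, N+PD24 minus Nutlin was set beside PD24 minus DMSO. The comparisons share no library and were estimated in 1 limma fit over 12 libraries. Calls of PD24 against DMSO come from this fit, while the 1222 lower and 728 higher genes come from the separate fit over 6 libraries. Of the 1222 lower genes, 862 were also lower in PD24 against DMSO, which is 70.5% of the former and 67.7% of the latter 1274 (7.79% of genes tested there), and of the 728 higher genes 384 were also higher, 52.7% of the former and 50.0% of the latter 768 (4.7%). Across 16351 genes the effects had Pearson's r of 0.831 and Spearman's rho of 0.729, as a description, since genes are not independent replicates. The interaction term passed an adjusted p of 0.05 and an absolute size over 1 for 99 genes (0.605%), 67 higher and 32 lower with Nutlin. The 99 became 49 without N+PD24 replicate 2, and the 32 lower genes became 6 without it and 10 without N+PD24 replicate 1.

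Of the 67 genes higher with Nutlin, 28 belonged to the cell cycle lists, which held 215 genes tested, in a fit of 16351 genes. The median change of the 67 was -3.67 without Nutlin and -1.78 with it. E2F2, an activating E2F factor, had the largest term. It stood at 18.7 ± 1.36 CPM in DMSO and 0.690 ± 0.131 CPM in PD24, and at 2.60, 2.56 and 2.95 CPM in Nutlin and 1.59, 3.07 and 2.29 CPM in N+PD24 (interaction 4.45, SE 0.32, adjusted p = 3.85e-05). Both groups given Nutlin thus overlapped and lay between the groups without Nutlin. MCM10, a replication initiation factor, showed both falls, -6.38 without Nutlin and -2.65 with it (interaction 3.73, SE 0.54, adjusted p = 0.00668), as did the centromeric histone CENPA at -6.46 and -3.02.

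TYMS and PCNA kept more of their transcript when Nutlin followed. TYMS fell from 83.6 ± 2.17 CPM in DMSO to 1.596 ± 0.306 CPM in PD24 but to 11.9 ± 0.484 CPM in N+PD24 (interaction 2.43, SE 0.18, adjusted p = 3.85e-05). PCNA, also a p53 target, had 42.3 ± 5.67 CPM in PD24 and 147 ± 3.62 CPM in N+PD24 (interaction 1.68, SE 0.16, adjusted p = 0.000249). The annotated span of TYMS overlaps ENOSF1 on the other strand. TOP2A, in contrast, fell by nearly as much in either setting, -6.82 and -6.97, with an interaction of -0.15 (SE 0.28, adjusted p = 0.885).

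Among the 87 p53 targets, 6 passed the interaction thresholds (0.605% of all genes did), each of them higher with Nutlin. CDKN1A had 216, 189 and 139 CPM in DMSO and 92.2, 91.6 and 105 CPM in PD24, so its change was -0.89 without Nutlin against 0.28 with it (interaction 1.17, SE 0.20, adjusted p = 0.0179, and 0.0585 without N+PD24 replicate 2). FAS (-0.97 and 0.40), the translesion polymerase POLH (-1.63 and -0.26) and BTG2 (-1.76 and -0.60) were further cases, of which BTG2 missed the threshold without N+PD24 replicate 1 (adjusted p 0.0814) or 3 (0.0757). TRAF4 and ACER2 completed them. MDM2 fell by a like amount in either setting, -0.90 and -0.98 (interaction -0.08, SE 0.24, adjusted p = 0.936).

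The 32 genes lower with Nutlin had a median change of 0.60 without Nutlin and -0.97 with it, and only 1 was on the cell cycle lists, CDC7. TBX4, a T-box transcription factor, had 0.0722 ± 0.0433 CPM in DMSO, 0.226 ± 0.0379 CPM in PD24, 13.8 ± 1.44 CPM in Nutlin and 3.54 ± 0.665 CPM in N+PD24 (interaction -3.33, SE 0.41, adjusted p = 0.00194). IFITM10, of the interferon-induced transmembrane family, went from 2.06 ± 0.640 CPM to 23.7 ± 3.24 CPM without Nutlin and from 27.7 ± 5.55 CPM to 52.1 ± 13.8 CPM with it (interaction -2.64, SE 0.34, adjusted p = 0.00263).

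**Figure D4:**
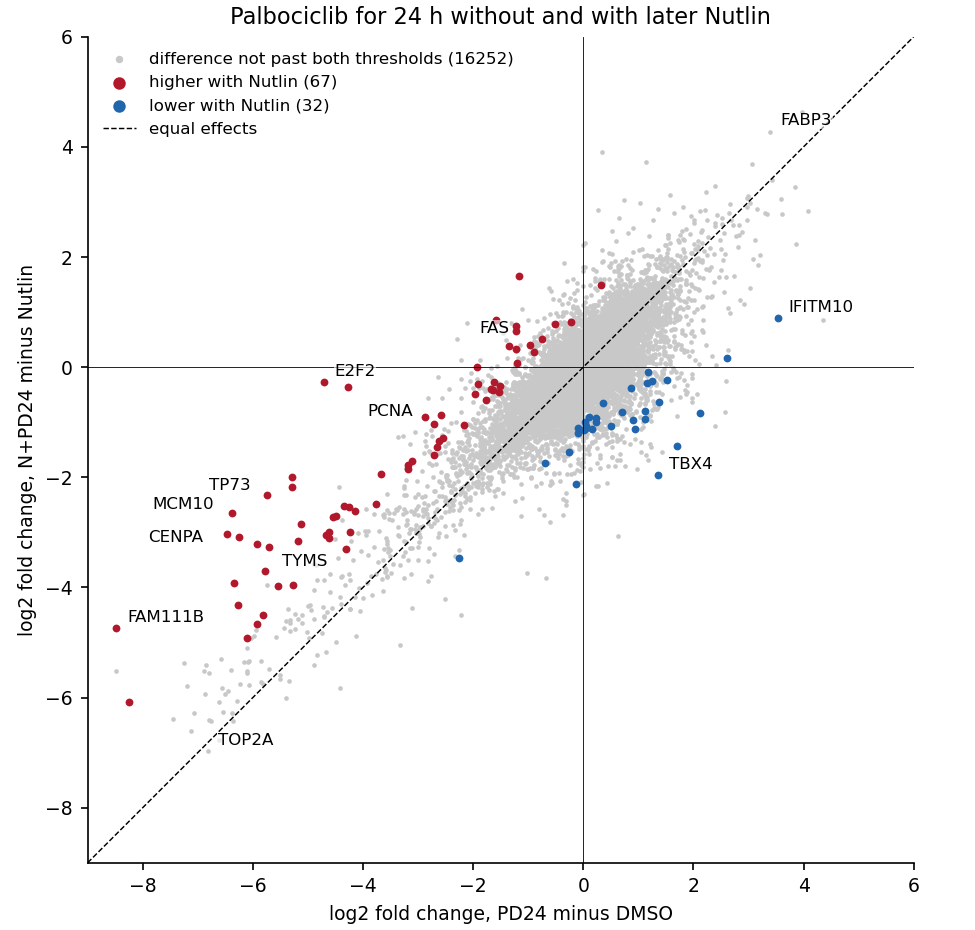
Log2 fold change of PD24 minus DMSO (x axis) and of N+PD24 minus Nutlin (y axis) for 16351 genes, with the dashed line at equal effects. Red points mark the 67 genes with a higher and blue points the 32 genes with a lower effect in Nutlin by the interaction term, and E2F2 lies near 0 on the y axis at -4.71 on the x axis.

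The nearest group of the series is N+PD30, in which PD0332991 stayed on during Nutlin, so N+PD24 was tested against it directly by limma. N+PD24 was higher for 1103 of 15379 genes (7.17%) and lower for 913 (5.94%), and the adjusted p alone was passed by 2167 (14.1%) and 2684 (17.5%). Scaling by total counts moved the median of all genes to -0.10 and the split to 996 higher and 1076 lower. Mitotic genes stayed low in both groups, TOP2A at 7.75 and 9.01 CPM in N+PD24 and N+PD30 (adjusted p = 0.62), with a list median of 0.13.

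Of 85 p53 targets tested against N+PD30, 28 were lower and 12 higher past the adjusted p (32.9% and 14.1%, against 17.5% and 14.1% of all genes), with 11 lower and 4 higher past both thresholds and a median of -0.19. CDKN1A was higher after removal of the drug, with 4325, 5388 and 4995 CPM in N+PD24 and 2442, 2722 and 2035 CPM in N+PD30 (1.04, adjusted p = 0.00103). MDM2 passed the adjusted p with 6427, 7885 and 7700.1 CPM in N+PD30 (0.67, adjusted p = 0.0189). BBC3 was lower, at 9.95 against 21.5 CPM (-1.20, adjusted p = 0.0172, and 0.0565 without N+PD24 replicate 2). BTG2 and DDIT4 were lower as well, at 52.8 against 174 CPM (-1.72) and at 5.68 against 43.5 CPM (-2.94). The 5 largest differences toward N+PD24, ZNF300P1, KRT3, FBXW10, TRIM55 and KRT78, were scarce transcripts. TRIM55, a muscle ubiquitin ligase, had 0.0323 ± 0.0313 CPM in DMSO, 16.1 ± 3.99 CPM in Nutlin, 6.72 ± 1.43 CPM in N+PD24 and 0.235 ± 0.0720 CPM in N+PD30 (4.63, adjusted p = 8.46e-05).

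Cholesterol synthesis had the list median furthest from 0 in this comparison, with 16 of 26 genes lower in N+PD24 than in N+PD30, 1 higher (61.5% and 3.85%, against 5.94% and 7.17% of all genes), and that median at -1.15. Heat shock genes were shifted up, 28 of 38 higher past the adjusted p against 2 lower (73.7% and 5.26%, against 14.1% and 17.5% of all genes), with a median of 0.62, and HSPA8, the constitutive HSP70, stood at 3625 against 1691 CPM (1.12, adjusted p = 0.00122). Of the secreted genes 10 of 36 were higher past both thresholds (27.8% against 7.17%), CSF2 the furthest at 6.55 against 0.276 CPM (4.39, adjusted p = 0.000125), and SPHK1 was at 135 against 23.2 CPM (2.54, adjusted p = 0.000324). JUND, DUSP8 and CHAC1 had the reverse pattern, for example 2.77 against 23.7 CPM for JUND (-3.13, adjusted p = 0.00017). Of the 7 tested markers of other cell types, 4 were higher in N+PD24 past both thresholds, PECAM1, ALB, SYP and GFAP, with a list median of 1.01, and each of these 4 was at most 1.84 CPM on average in N+PD24. The part of these markers in the other differences from N+PD30 was not tested.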

How the data were processed

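RNA of SJSA cells was sequenced from 18 libraries, of which the 6 of Nutlin and N+PD24 were compared. Per the labels and the methods of the study, the authors aligned reads to hg19 with TopHat and Bowtie2 and made counts per gene with HTSeq 0.6.0 in its reverse strand setting, and whether the library kit kept strand is not given in the sources used here. The deposited values of the Nutlin libraries were counts, whereas the deposited values of the N+PD24 libraries were a signal, gene counts divided by 1 size factor per library, which gave whole reads within 0.01 for 100% of values once multiplied back. Columns of the authors' own comparison, with fold changes and p-values, were not used. Read totals of all libraries ranged from 12704845 to 40231041. The table held 23368 gene names, of which 28 had been turned into dates and 91.8% matched the GENCODE annotation of GRCh37.

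Values were scaled by TMM factors over all 18 libraries (edgeR 4.0.16), filtered by filterByExpr and tested as log2(reads scaled to the mean library size + 1) by limma 3.58.1 with an intensity trend in R 4.3.3, with Benjamini-Hochberg adjustment over all genes tested. Genes were called with an adjusted p under 0.05 and a log2 fold change beyond 1 in either direction. For N+PD24 against Nutlin the alternatives were edgeR, DESeq2 1.42.0, other scalings and filters, a pseudocount of 5, leaving out each library, and replicate number as a block. Leaving N+PD24 values divided is among them. For the interaction and for N+PD30 they were edgeR, total counts, quantile normalization, the block, and leaving out each N+PD24 library. N+PD30 replicate 1, the library with the fewest reads (12704845), was not left out. Same-numbered Nutlin and N+PD24 libraries deviated together from their group means (r = 0.675, 0.443 and 0.527 over 12785 genes), against -0.505 to 0.106 for other numbers, so blocked values are given beside p-values of this comparison whose call they change. The scripts were tested on simulated data. Named genes were those the study follows, key members and extreme members of 27 gene lists, and the 10 largest changes in each direction that did not overlap and reached a mean of 5 CPM, or the 5 largest for the other comparisons. Genes beyond this rule complete a count and were chosen after their values were seen, as were GINS2 and CTPS. Some members of the lists are counted but not reported here by name. Members and lists were chosen with earlier results of these data known. Promoters were read from the RefSeq table of GRCh38.p14, and other positions from GRCh37. Drawings used matplotlib 3.10.9.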

Additional observations from a re-analysis of the deposited data

Results flagged for a closer look

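The effect of the pretreatment differed with and without Nutlin by the interaction term of the limma fit for 22 named genes, given here as N+PD24 minus Nutlin less PD24 minus DMSO on the log2 scale. Among cell cycle genes the term was 4.45 for E2F2, 3.73 for MCM10, 3.44 for CENPA, 2.71 for CCNE2, 2.43 for TYMS, 1.98 for E2F7, 1.83 for EXO1, 1.72 for CENPL, 1.68 for PCNA and 1.19 for CCNA2. Among p53 targets it was 1.37 for FAS, 1.37 for POLH, 1.17 for CDKN1A and 1.16 for BTG2. The remaining positive terms were 3.74 for FAM111B, 3.43 for TP73 and 3.16 for HMMR. The negative terms were -3.33 for TBX4, -2.96 for CLCA2, -2.64 for IFITM10, -2.07 for GPR157 and -1.92 for ARHGAP30. Terms for E2F7, CDKN1A, BTG2, CLCA2, ARHGAP30 and FAM111B missed the adjusted p when at least 1 N+PD24 library was left out. Terms for FAM111B and CLCA2 also missed it with edgeR (adjusted p 0.0576 and 0.0768), those for FAM111B, CLCA2, ARHGAP30 and BTG2 after quantile normalization (0.0595 to 0.114), and those for BTG2 and E2F7 with total counts (0.0541 and 0.0656). No explanation was tested.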

How the results depend on the processing

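The counts of 1222 lower and 728 higher genes stayed within 1.5 times under other scalings, filters, pseudocounts and tools, and were 1080 to 1285 and 644 to 885 on leaving out 1 library. With the adjusted p alone they were 2742 and 2643, and 4851 for N+PD24 against N+PD30. With the replicate block they were 1289 and 796, and with the block and the adjusted p alone, chosen after seeing the data, 4165 and 4157. Same numbers paired only part of the libraries of the other comparisons. There the replicate block gave 170 genes for the interaction, and with the adjusted p alone 285, and 5179 for N+PD24 against N+PD30. For DMSO and Nutlin same-numbered correlations were -0.276, 0.322 and 0.185, and for N+PD30 and N+PD24 0.05, 0.155 and 0.37. They were 0.106, 0.17 and 0.626 for DMSO and PD24, against up to 0.548 for other numbers. For PD24 and N+PD24 they were 0.45, 0.543 and 0.199, against up to 0.191 for other numbers. The interaction count was 49 to 88 without 1 N+PD24 library, the lowest without replicate 2. The cause was not tested. Of 2688 alternative values for 168 named results of N+PD24 against Nutlin, 58 lost and 36 gained the threshold, and none reversed a called gene. The losses include MVD, DCN, LAMA5, CRYAB, E2F7, CCNG1 and CLCA2 on leaving out 1 library. Of 324 list medians, 34 moved by more than the spread between pairs. The 3 libraries in each group and the few reads of scarce genes limit the precision.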
